A study of Mus musculus with 13 samples.

Results

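The Gimap genes (GTPases of immunity-associated proteins) were followed from double-negative (DN) to mature thymocytes and in the T, B and NK cells of the other tissue samples of the same library. The family was taken as the 8 genes Gimap1, Gimap3, Gimap4, Gimap5, Gimap6, Gimap7, Gimap8 and Gimap9, chosen by their symbols, of 57010 genes in the gene lists. All of them had counts, with 109213 UMIs (unique molecular identifiers) in the thymic samples of the Parse WT kit, 44363 in those of the Parse Mini kit and 384228 in the 16 other samples. Parse is a split-pool method, in which fixed cells pass through rounds of well barcodes and the first-round well identifies the sample. The study processed thymi of 2 female C57BL/6N mice aged 2 months with the Parse WT kit, as 2 lobes per mouse, and repeated the experiment on separate mice with the smaller Parse Mini kit. No genotype other than the strain is stated for any group, and the Mini libraries are labelled as control. The 4 Parse WT thymic samples are numbered 1 to 4 in the deposited cell table, the 4 Parse Mini samples are named T-1-A, T-1-B, T-2-A and T-2-B, and neither table says which lobe came from which mouse. Thus n = 4 stands for lobes of 2 mice in each kit. With the sample as a block, p-values rest on how class differences vary between lobes, and not on the spread between mice. The study calls the remaining 16 samples of the Parse WT library non-thymic. The labels of the library name thymus or spleen of young or adult mice, under control or chronic stress conditions, and do not say which sample is which. The names of the 16 samples carry the prefixes CVS_C, CVS_S and YD_C, whose meaning is not stated. These samples were therefore given as a median and range and used to compare cell classes within a sample, with no comparison between their groups. The 10x libraries of the series were not analysed here.

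Gimap proteins carry a guanine nucleotide-binding domain of the AIG1 type and sit on intracellular membranes of lymphocytes. Gimap1 and Gimap5 are required for normal numbers of peripheral lymphocytes in mice, and rats without Gimap5 lack most peripheral T cells. Gimap6 binds an Atg8 protein of the autophagy pathway. Thymocytes pass from the DN stage through proliferating (DP-P), recombining (DP-R) and selected (DP-S) double-positive stages to single-positive (SP) CD4 or CD8 cells, and leave the thymus as mature SP cells.

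The members lie side by side on chromosome 6, in 124 kb between positions 48647234 and 48770851 of GRCm38 (mm10), as annotated in GENCODE M21. Gimap8 (chr6:48647234-48660875), Gimap9 (chr6:48676129-48679114) and Gimap4 (chr6:48684549-48692060) lie on the plus strand, followed by Gimap6 (chr6:48701582-48708225) on the minus strand. Gimap7 (chr6:48718621-48724636), Gimap1 (chr6:48739054-48743795) and Gimap5 (chr6:48746197-48754210) lie on the plus strand, and Gimap3 (chr6:48764464-48770851) closes the cluster on the minus strand. Gm28053 (chr6:48718607-48752644) is annotated as a protein-coding gene that spans Gimap7 and Gimap1 and overlaps Gimap5 on the same strand, and the antisense transcript Gimap1os (chr6:48738346-48741444) overlaps Gimap1. How reads shared by overlapping genes, or by the closely related pair Gimap3 and Gimap5, were counted is not stated for these files, so the values of Gimap1, Gimap3, Gimap5 and Gimap7 are uncertain in that respect. The values of Gm28053 and Gimap1os are given beside them.

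The 250 bases before the RefSeq start (GRCm38.p6) are shown for the pair of members that changed most over maturation, Gimap3 and Gimap4, for Gimap6, which changed moderately, and for Gimap9, which differed least between DP-R and mature cells. Capitals mark matches, on either strand, to CACCC (the core bound by KLF factors), TGTGGT (RUNX) and GTAAACA (FOXO), and the sequences are written 5′ to 3′ along the gene.
Gimap3, chr6:48770852-48771101, minus strand: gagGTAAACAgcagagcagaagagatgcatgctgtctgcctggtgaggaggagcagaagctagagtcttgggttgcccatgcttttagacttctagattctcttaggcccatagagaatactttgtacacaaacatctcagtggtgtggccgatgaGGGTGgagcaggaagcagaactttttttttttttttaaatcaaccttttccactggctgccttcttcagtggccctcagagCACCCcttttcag
Gimap4, chr6:48684328-48684577, plus strand: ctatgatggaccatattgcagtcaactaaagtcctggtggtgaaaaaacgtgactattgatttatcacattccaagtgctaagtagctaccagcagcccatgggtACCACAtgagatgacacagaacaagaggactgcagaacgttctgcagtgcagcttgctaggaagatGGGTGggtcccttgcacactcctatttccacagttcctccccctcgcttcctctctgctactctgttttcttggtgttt
Gimap6, chr6:48708245-48708494, minus strand: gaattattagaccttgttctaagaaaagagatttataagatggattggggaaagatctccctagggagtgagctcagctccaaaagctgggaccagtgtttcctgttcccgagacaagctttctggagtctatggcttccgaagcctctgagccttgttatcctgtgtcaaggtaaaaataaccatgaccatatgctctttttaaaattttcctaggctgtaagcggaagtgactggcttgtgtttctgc
Gimap9, chr6:48675885-48676134, plus strand: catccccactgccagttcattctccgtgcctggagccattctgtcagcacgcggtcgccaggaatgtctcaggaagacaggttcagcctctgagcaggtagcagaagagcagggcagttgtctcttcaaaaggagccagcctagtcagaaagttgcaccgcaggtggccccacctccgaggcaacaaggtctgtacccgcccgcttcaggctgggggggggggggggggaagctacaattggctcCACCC
The window of Gimap3 held the CACCC core at positions -94 and -13 and the FOXO letters at -247 from the start, whereas that of Gimap4 held CACCC at -79 and the RUNX letters at -145. Gimap9 held CACCC at -5 and Gimap6 held none of the motifs. Over the 8 genes, CACCC was in the windows of 5 (Gimap3, Gimap4, Gimap5, Gimap8 and Gimap9), the RUNX letters in those of 3 (Gimap1, Gimap4 and Gimap7) and the FOXO letters in that of Gimap3. Gimap8, for which RefSeq gives 2 starts, held CACCC in both windows. Of all 32851 promoter windows of this length, 52.0% held CACCC, 14% the RUNX letters and 3.17% the FOXO letters. The letters CCGGAA (ETS) and CTTTGA (TCF1) were searched as well and were in none of the 8 genes' windows, against 12.0% and 13.8% of all windows. A match is a description of the letters only.

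Cells were clustered without the Gimap genes and named from markers, so that a class is called X-like. The Parse WT samples gave 1005 DN-like, 5188 DP-P-like, 15179 DP-R-like, 5342 DP-S-like, 2367 SP-CD4-like, 917 SP-CD8-like, 1494 mature SP-like, 754 Treg-like and 510 innate-like T cells, and the Parse Mini samples 450, 2889, 9049, 1842, 1392, 446, 523, 476 and 198. Orders of thymic classes refer to these 9 thymocyte classes, and B-like and cDC-like cells are given apart. The thymic samples held 30450786 to 124106974 UMIs each in Parse WT and 28057164 to 33264104 in Parse Mini, and Rag1, a recombinase gene that marks thymocytes, was at 698 to 942 and 1000 to 1112 CPM in them against 4.17 to 27.8 CPM in the 16 other samples. Within the thymus Rag1 was at 1327 to 1929.5 CPM in DP-R-like cells but also at 554 to 647 CPM in mature SP-like cells of Parse WT, and at 1896 to 2074 and 432 to 697 CPM in Parse Mini. Rag1 was thus present in every class, and the part of RNA from DP-R cells in the levels of the other classes was not tested. S1pr1, the egress receptor of mature thymocytes, was at 134 to 201 CPM in mature SP-like and 1.16 to 4.48 CPM in DP-R-like cells of Parse WT. Median Cd4 and Cd8a were 590 and 312 CPM in mature SP-like, 591 and 349 in SP-CD4-like and 323 and 532 in SP-CD8-like cells of Parse WT. Parse Mini gave 685 and 276, 683 and 360, and 349 and 566 CPM. The mature SP-like class was thus closer to SP-CD4-like than to SP-CD8-like cells in these genes, and does not stand for both lineages alike. DN-like cells held Cd4 and Cd8a as well, at medians of 279 and 257 CPM in Parse WT and 321 and 287 CPM in Parse Mini. The part of RNA from DP cells in these values was not tested. Sample 1 of Parse WT had the fewest cells of the 4 (4178, against up to 15077) and stood apart in several levels given below, but among the calls of members in Parse WT only that of Gimap8 between SP-CD8 and SP-CD4 was lost without it. The summed level of 8 B cell markers was 179 to 240.5 CPM in DP-R-like and 137 to 188 CPM in mature SP-like cells of Parse WT, and the summed level of 8 NK markers 10.0 to 13.6 and 2.29 to 16.1 CPM, so that neither list lay above its DP-R range throughout the mature class. Parse Mini gave 80.6 to 94.2 and 43.2 to 78.3 CPM for the B cell list, and 6.68 to 11.6 and 3.55 to 19.1 CPM for the NK list. The part of RNA from the other samples of the library in the Parse WT levels was not tested. A barcode combination occurred in more than 1 sublibrary in 19867 cases of Parse WT and 1360 of Parse Mini, and 3012 combinations occurred in both kits.

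Levels are CPM, the UMIs of a gene per 1000000 UMIs of the class and sample outside the ribosomal RNA genes Rn18s-rs5, mt-Rnr1 and mt-Rnr2, as mean ± SD over the 4 samples. The summed level of the family was 290.1 ± 33.0 CPM in DN-like, 216 ± 33.8 in DP-P-like and 361 ± 28.9 in DP-R-like cells of Parse WT. From there its mean was higher at each later stage, at 574 ± 46.1 in DP-S-like, 964 ± 164 in SP-CD4-like and 1165 ± 131 CPM in mature SP-like cells, although the ranges of the last 2 classes overlapped. SP-CD8-like cells were at 828 ± 52.2, Treg-like cells at 852 ± 25.7 and innate-like T cells at 651 ± 80.9 CPM. Parse Mini gave 273 ± 35.3, 245 ± 26.6, 362 ± 37.9, 578 ± 62.1, 874 ± 92.9 and 1393 ± 205 CPM from DN-like to mature SP-like cells. The ranges over samples of DN-like and DP-P-like cells overlapped in both kits, and those of SP-CD4-like, SP-CD8-like and Treg-like cells overlapped as well. The 103 B-like cells of the Parse Mini thymus held 861 ± 204 CPM, within the range of the SP classes.

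**Figure D1:**
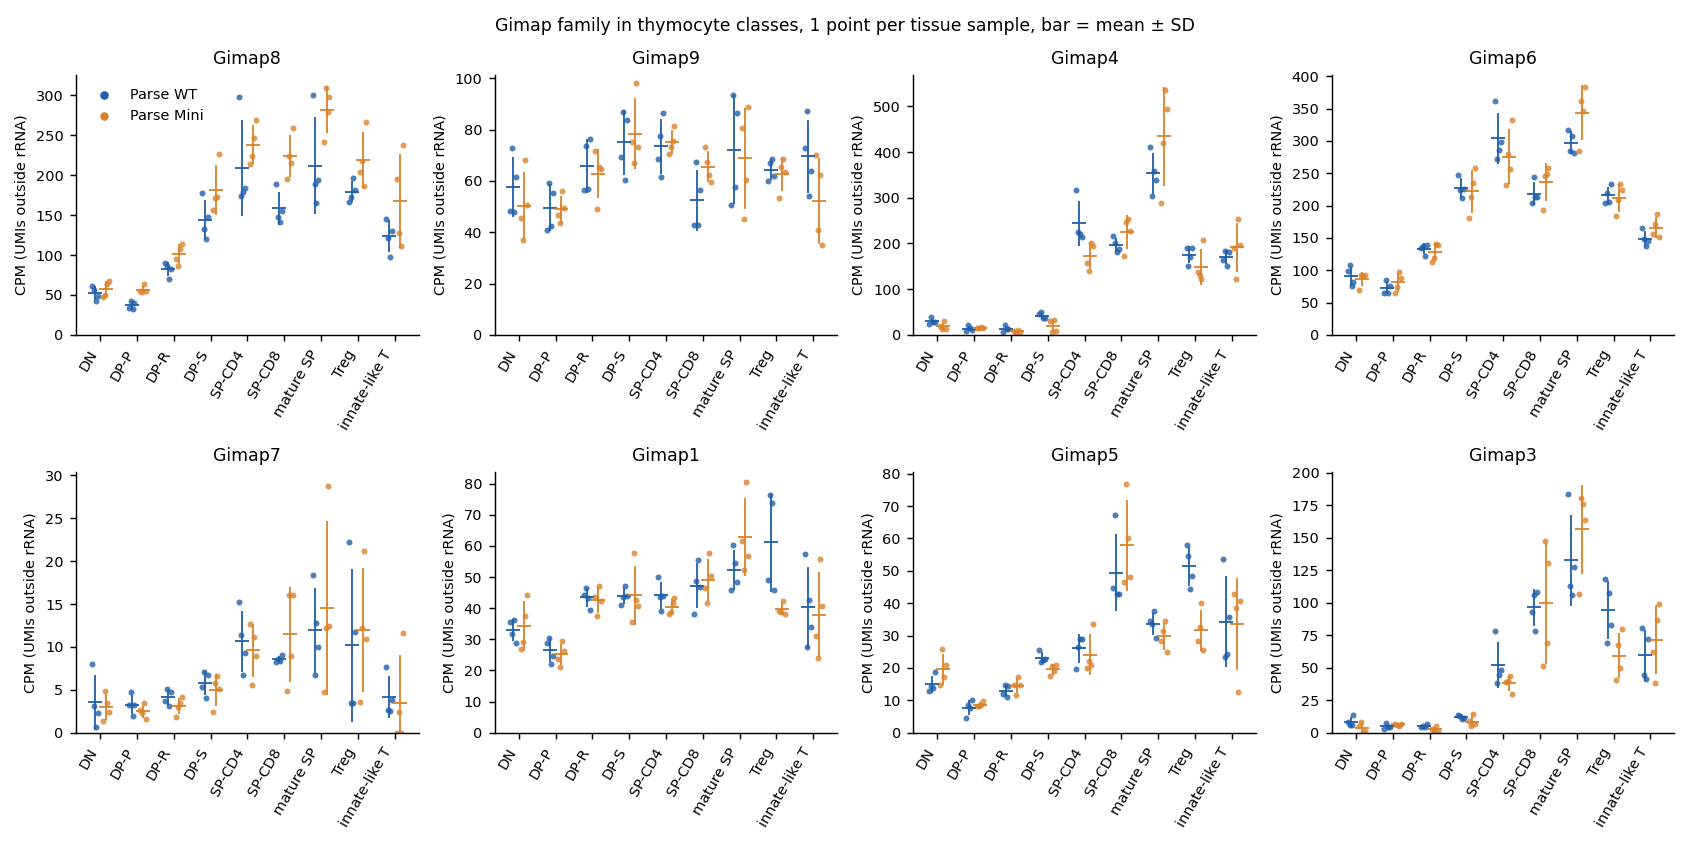
Levels of the 8 Gimap genes in 9 thymocyte classes, in CPM of UMIs outside ribosomal RNA (vertical axis, linear, from 0), in genome order. Each point is 1 tissue sample of Parse WT (blue) or Parse Mini (orange), and the bars show mean ± SD (n = 4). Gimap4 and Gimap3 stay near the axis until DP-S and are highest in mature SP, and Gimap6 and Gimap8 rise in steps from DP-R. All members but Gimap3 and Gimap4 have their lowest mean in DP-P in both kits.

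Gimap4 and Gimap3 were low in double-positive cells and highest in mature SP-like cells. Gimap4 encodes a member found on membranes of the endoplasmic reticulum and has been linked to the pace of T cell death. In DP-R-like cells of Parse WT samples 1 to 4 it was at 6.39, 21, 13.6 and 13.2 CPM. DP-S-like cells held 44.8, 49.3, 36.2 and 37.2 CPM, SP-CD4-like cells 317, 225, 220.3 and 214 and mature SP-like cells 411, 304, 359 and 339. Every sample was thus higher in SP-CD4-like than in DP-S-like cells and higher in DP-S-like than in DP-R-like cells. In Parse Mini the 4 samples stood at 9.52, 4.45, 9.79 and 6.61 CPM in DP-R-like, 30.1, 6.6, 32.5 and 8.70 in DP-S-like, 157, 139.7, 202 and 195 in SP-CD4-like and 289, 419, 536 and 494 in mature SP-like cells. Here DP-R-like and DP-S-like cells overlapped, since T-1-B and T-2-B were low in both, whereas mature SP-like cells lay above the other 8 thymocyte classes. The B-like cells of the Parse Mini thymus, at 228 ± 103 CPM, overlapped them. The log2 fold from DP-R to mature SP was 4.60 ± 0.15 (adjusted p = 3.89e-30) in Parse WT and 5.85 ± 0.175 (adjusted p = 2.09e-34) in Parse Mini (edgeR, ± SE).

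Gimap3, whose product is anchored in the outer mitochondrial membrane, was at 4.26, 5.42, 4.09 and 6.42 CPM in DP-R-like cells of Parse WT and at 78.1, 38.4, 44.5 and 48.6 CPM in SP-CD4-like cells. It reached 184, 113, 106 and 128 CPM in mature SP-like cells. Sample 1 was the highest in both SP classes, and SP-CD4-like and mature SP-like cells did not overlap. Parse Mini gave 2.83, 1.62, 4.99 and 1.16, 38.9, 39.8, 43.3 and 29.8 and 107, 181, 176 and 163 CPM in the same classes, again without overlap. The log2 fold from DP-R to mature SP was 4.57 ± 0.167 (adjusted p = 3.08e-28) in Parse WT and 5.88 ± 0.263 (adjusted p = 1.45e-26) in Parse Mini. SP-CD8-like cells, at 96.4 ± 14 and 99.5 ± 46.5 CPM, were above SP-CD4-like cells, at 52.4 ± 17.6 and 38.0 ± 5.75. As a gauge of the lowest levels, cDC-like cells of the Parse WT thymus (3 samples with enough cells) held 12.4 ± 6.95 CPM of Gimap3 and 18.3 ± 7.25 CPM of Gimap4. The levels of both genes in DP-R-like cells were within or below the range of these samples, and no expression of either was read from them. The size of a log2 fold of these genes against DP-R-like cells thus depends on a level that was not told apart from background.

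Gimap6 and Gimap8 had their own course, with sizeable levels in every class and moderate steps. Gimap8 is the largest member, with more than 1 GTPase domain. In Parse WT, Gimap6 was at 98.4, 107, 75.2 and 81.1 CPM in DN-like cells, 135, 138, 122 and 139 in DP-R-like, 247, 225, 212 and 225 in DP-S-like and 361, 271, 286 and 298 in SP-CD4-like cells. These 4 classes did not overlap over samples. Mature SP-like cells, at 317, 284, 307 and 281 CPM, overlapped SP-CD4-like cells, and SP-CD8-like cells, at 203, 244, 213 and 214, were lower than both. DP-P-like cells, at 72.8 ± 9.91 CPM, had the lowest mean and overlapped DN-like cells. In Parse Mini the means over DN-like, DP-P-like, DP-R-like, DP-S-like, SP-CD4-like and mature SP-like cells were 86.2 ± 11, 81.1 ± 14.2, 128 ± 14, 222 ± 32.6, 275 ± 42.6 and 344 ± 42.6 CPM. DN-like and DP-P-like cells overlapped here too, as did DP-S-like, SP-CD4-like and mature SP-like cells from one to the next. Gimap8 was at 52.3 ± 8.43, 37.4 ± 4.96, 82.1 ± 8.78, 144 ± 24.7, 209 ± 59.8 and 212 ± 60.3 CPM in the same 6 classes of Parse WT, with DP-P-like cells lowest. The spread of its SP levels came mostly from sample 1, which held 298 CPM in SP-CD4-like cells against 174 to 184 in the other samples. Parse Mini gave 57.1 ± 10.1, 56.7 ± 4.36, 101 ± 12.5, 181 ± 30.7, 238 ± 24.8 and 282 ± 29.8 CPM. From DP-R to mature SP the log2 fold of Gimap6 was 1.11 ± 0.0674 (adjusted p = 2.29e-19) in Parse WT and 1.42 ± 0.0795 (adjusted p = 3.66e-22) in Parse Mini. That of Gimap8 was 1.30 ± 0.0963 (adjusted p = 2.73e-16) and 1.48 ± 0.0976 (adjusted p = 3.39e-19).

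Gimap5, a member of the lysosomal compartment needed for T cell survival, was lowest in cycling DP-P-like cells and highest in SP-CD8-like cells, together with Treg-like cells in Parse WT. In Parse WT it was at 4.54, 8.56, 7.75 and 9.99 CPM in DP-P-like cells and 12.9, 14.3, 13.7 and 18.7 in DN-like cells, which did not overlap. SP-CD8-like cells held 44.6, 67.2, 42.8 and 43.0 CPM, all above the 19.5, 26.5, 29.1 and 28.9 CPM of SP-CD4-like cells. Parse Mini showed 46.5, 76.8, 60.1 and 48.1 CPM in SP-CD8-like against 19.9, 22.2, 20.9 and 33.5 in SP-CD4-like cells. The log2 fold of SP-CD8 against SP-CD4 was 0.87 ± 0.175 (adjusted p = 1.79e-04) in Parse WT and 1.24 ± 0.219 (adjusted p = 1.62e-05) in Parse Mini. Treg-like cells were at 51.4 ± 6.00 CPM in Parse WT and 31.7 ± 6.34 in Parse Mini. Gm28053, which overlaps Gimap5, stood at 14.6 ± 1.72 CPM in SP-CD4-like, 12.5 ± 4.29 in SP-CD8-like and 16 ± 6.19 in mature SP-like cells of Parse WT. In Parse Mini its means were 14.4 CPM in SP-CD4-like and 23.4 in SP-CD8-like cells, a log2 fold of 0.72 ± 0.315 (edgeR, adjusted p = 0.139). The part of shared reads in the Gimap5 difference was not tested.

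Gimap9 and Gimap1, like the other members, had UMIs in each of the 9 thymocyte classes. Their lowest mean was in DP-P-like cells in both kits, as was that of Gimap5, Gimap6, Gimap7 and Gimap8. Gimap7 was the rarest member. Gimap9, of which little is known, ranged from 49.5 ± 9.15 CPM in DP-P-like to 75.0 ± 12.5 CPM in DP-S-like cells of Parse WT. Its samples kept an order of their own, with samples 2 and 4 above samples 1 and 3 in DN-like (48.4, 72.6, 47.9 and 61.6 CPM), DP-R-like (56.6, 73.4, 57.0 and 76.2) and mature SP-like cells (50.5, 93.6, 57.6 and 86.6). Between DP-R and mature SP its log2 fold was 0.12 ± 0.0875 (adjusted p = 0.286) in Parse WT and 0.14 ± 0.148 (adjusted p = 0.525) in Parse Mini. Gimap1 was at 33.0 ± 3.51 CPM in DN-like, 26.6 ± 3.83 in DP-P-like, 43.5 ± 2.95 in DP-R-like, 52.2 ± 6.42 in mature SP-like and 61.2 ± 15.9 in Treg-like cells of Parse WT. In Parse Mini it ranged from 25.2 ± 3.49 in DP-P-like to 62.8 ± 12.5 in mature SP-like cells, with 42.6 ± 4.03 in DP-R-like and 39.6 ± 1.92 in Treg-like cells. Classes next to each other in the order of the means overlapped for both genes in both kits. Its antisense neighbour Gimap1os was at 9.03 ± 1.70 and 12.9 ± 5.46 CPM in DP-R-like and mature SP-like cells of Parse WT. Gimap7, known from lipid droplets, was at 3.53 ± 3.18 CPM in DN-like and 11.9 ± 4.95 in mature SP-like cells of Parse WT, with single samples between 6.69 and 18.4 in the latter class.

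Each step of the path was tested with edgeR's quasi-likelihood test on summed UMIs, with the sample as a block, over 11161 genes in Parse WT and 9337 in Parse Mini, and a gene was called at an adjusted p under 0.05. All 8 members passed the filter on low counts. Each call was repeated under alternatives of normalisation, test, filter, sample block, doublets, clusters and depth and without each sample, and the number under which it held is given for the less stable calls. From DN to DP-P, 3 members fell in Parse WT (Gimap4, Gimap5 and Gimap8) and 2 in Parse Mini (Gimap1 and Gimap5), where 21.1% and 18.2% of all genes were called lower. Gimap5 fell in both kits, with log2 folds of -0.82 ± 0.200 (adjusted p = 6.44e-04) in Parse WT and -1.12 ± 0.241 (adjusted p = 1.49e-04) in Parse Mini. The log2 fold of Gimap4 in Parse WT was -1.07 ± 0.234 (adjusted p = 1.66e-04), and its call was lost with doublets removed at the larger, published share (log2 fold -0.63, adjusted p = 0.313). The call of Gimap8 (-0.35 ± 0.133, adjusted p = 0.0279) held under 6 of 13 alternatives and was lost without sample 2, 3 or 4. That of Gimap1 in Parse Mini (-0.43 ± 0.163, adjusted p = 0.0326) held under 8 of 13 and was lost without T-1-B, T-2-A or T-2-B. With cells thinned to 1000 UMIs none of the 7 members then tested in Parse WT, and none of the 5 in Parse Mini, passed. Gimap1 and Gimap5 were not among the 5, so that thinning could not test the 2 calls of Parse Mini. The call of Gimap5 in Parse Mini held under all 13 alternatives in which it was tested.

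From DN to DP-R the same 5 members passed in both kits. With 57.4% of all genes called in Parse WT and 51.4% in Parse Mini, 5 of 8 is near the background. Median depth was 7650.5 UMIs per cell in DN-like and 1959.5 in DP-R-like cells of Parse WT, and 6764 and 2021 in Parse Mini. With cells thinned to 1000 UMIs, the calls of Gimap1, Gimap4 and Gimap9 were lost in Parse WT. Those of Gimap6 and Gimap8 held in both kits. Gimap6 (0.66 ± 0.0855, adjusted p = 4.25e-09 in Parse WT), Gimap8 (0.74 ± 0.123, adjusted p = 1.18e-06), Gimap1 (0.51 ± 0.122, adjusted p = 4.23e-04) and Gimap9 (0.27 ± 0.0893, adjusted p = 0.00852) were higher in DP-R-like cells. Gimap4 was lower, by a log2 fold of -1.07 ± 0.235 (adjusted p = 1.18e-04) in Parse WT and -1.29 ± 0.347 (adjusted p = 0.00135) in Parse Mini. This call was lost when doublets were removed at the published share, at log2 fold -0.16, adjusted p = 0.793 in Parse WT and at log2 fold 0.32, adjusted p = 0.757 in Parse Mini, where the direction turned. The call of Gimap9 held under 9 of 13 alternatives in Parse WT, and was lost without sample 4, without the sample block (log2 fold 0.23, adjusted p = 0.342), at the published doublet share (log2 fold 0.10, adjusted p = 0.609) and with cells thinned to 1000 UMIs (log2 fold 0.062, adjusted p = 0.857). In Parse Mini it held under 10 of 14 and was lost without T-1-A, with called doublets kept, at the published share and with thinned cells. Gimap1 held under 7 of 13 in Parse Mini and lost its call without T-1-A, T-1-B or T-2-A, among others. Its antisense neighbour Gimap1os was called higher as well, by 0.92 ± 0.292 (edgeR, adjusted p = 0.00611) in Parse WT and 0.77 ± 0.314 (adjusted p = 0.0362) in Parse Mini. The part of shared reads in the Gimap1 calls was not tested.

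From DP-R to DP-S, 5 members rose in each kit, where 16.1% and 10.1% of all genes were called higher. Gimap4 (log2 fold 1.52 ± 0.175, adjusted p = 5.55e-10), Gimap3 (1.18 ± 0.220, adjusted p = 2.39e-05), Gimap8 (0.77 ± 0.0873, adjusted p = 3.86e-10) and Gimap6 (0.72 ± 0.0580, adjusted p = 9.33e-15) rose in Parse WT, and in Parse Mini the same genes rose by 1.35 ± 0.293 (adjusted p = 2.95e-04), by 1.69 ± 0.439 (adjusted p = 0.00279), by 0.84 ± 0.0855 (adjusted p = 9.68e-12) and by 0.78 ± 0.0704 (adjusted p = 1.68e-13) on the log2 scale. The fifth was Gimap5 in Parse WT (0.77 ± 0.134, adjusted p = 7.13e-06) and Gimap9 in Parse Mini (0.31 ± 0.106, adjusted p = 0.0295). Gimap9 held this call under 10 of 14 alternatives and lost it without T-1-B or T-2-A, among others. That of Gimap4 in Parse Mini was lost at the published doublet share (log2 fold 1.07, adjusted p = 0.0627). The level of Gimap3 in DP-S-like cells, 12.4 ± 1.37 CPM in Parse WT, did not exceed that in cDC-like cells.

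From DP-S to SP-CD4, the same 4 members rose in both kits, Gimap4, Gimap3, Gimap8 and Gimap6, where 8.96% and 10.5% of all genes were higher. This was the steepest step of Gimap4 in both kits, with log2 folds of 2.47 ± 0.144 (adjusted p = 5.67e-19) in Parse WT and 3.12 ± 0.200 (adjusted p = 1.33e-18) in Parse Mini. Gimap3 rose by 1.97 ± 0.185 (adjusted p = 5.03e-12) and by 2.09 ± 0.323 (adjusted p = 1.08e-06). Gimap8 (0.45 ± 0.0920, adjusted p = 2.04e-04 and 0.34 ± 0.0890, adjusted p = 0.00316) and Gimap6 (0.36 ± 0.0628, adjusted p = 1.56e-05 and 0.26 ± 0.0738, adjusted p = 0.00783) rose less. The call of Gimap6 in Parse Mini held under 6 of 13 alternatives and was lost without T-1-A, T-1-B or T-2-B, among others. In Parse Mini the SP-CD4-like class is 1 cluster of 1392 cells in which the SP-CD4 and DP-S marker lists all but tied, so that every Parse Mini comparison with SP-CD4 given here rests on its name. Under the name DP-S these comparisons could not be fitted, and from DP-R to DP-S the genes called in Parse Mini went from 1849 to 3201 and the members called from 5 to 6.

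From SP-CD4 to mature SP, Gimap3 and Gimap4 rose in both kits, where 5.96% and 7.61% of all genes were called higher. Gimap3 rose by 1.43 ± 0.148 (adjusted p = 1.56e-10) in Parse WT and 2.10 ± 0.216 (adjusted p = 2.50e-11) in Parse Mini, and Gimap4 by 0.61 ± 0.126 (adjusted p = 4.49e-04) and 1.38 ± 0.137 (adjusted p = 6.65e-12). In Parse WT the call of Gimap4 was lost without the sample block (log2 fold 0.59, adjusted p = 0.0568) and with the Wald test of DESeq2 (log2 fold 0.59, adjusted p = 0.0769). Parse Mini added Gimap6 (0.38 ± 0.0811, adjusted p = 4.50e-04), Gimap8 (0.30 ± 0.0986, adjusted p = 0.0369) and Gimap1 (0.65 ± 0.175, adjusted p = 0.00692). Of these, Gimap8 held its call under 4 of 13 alternatives and lost it without any 1 of the 4 samples, and Gimap1 held it under 8 of 12 and lost it without T-2-A, among others. Gm28053, which spans Gimap1, stood at 14.4 ± 3.40 CPM in SP-CD4-like and 27.5 ± 7.26 in mature SP-like cells of Parse Mini. It was called as well, at a log2 fold of 1.01 ± 0.286 (edgeR, adjusted p = 0.0114), but not in Parse WT (0.058 ± 0.216, adjusted p = 0.939). The part of shared reads in the Gimap1 call was not tested.

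SP-CD8-like cells differed from SP-CD4-like cells in opposite ways for different members. The classes also differed in genes of maturation and egress, of which 11 of 15 were higher in SP-CD8-like cells of Parse WT and 12 in Parse Mini, where 1 was lower (8 of the 15 had served to name classes). Among them S1pr1 was higher by 2.41 and 3.18 and Ms4a4b by 2.50 and 3.17 on the log2 scale, and the part of this in the Gimap differences was not tested. Gimap3 was higher in SP-CD8-like cells by a log2 fold of 1.01 ± 0.167 (adjusted p = 8.08e-06) in Parse WT and 1.38 ± 0.250 (adjusted p = 2.86e-05) in Parse Mini, and Gimap5 was higher as given above, where 7.76% and 8.18% of all genes were higher. In Parse WT, Gimap6 (-0.42 ± 0.0818, adjusted p = 1.41e-04), Gimap9 (-0.46 ± 0.117, adjusted p = 0.00348) and Gimap8 (-0.33 ± 0.112, adjusted p = 0.0417) were lower, as were 5.92% of all genes. Gimap8 held this call under 4 of 13 alternatives and lost it without any 1 of the 4 samples. Gimap9 held it under 10 of 13 and lost it without sample 4, among others, and without the sample block 3 members passed in place of 5. In Parse Mini, where 5.03% of all genes were lower, none of these 3 genes passed (1 member was lower at an unadjusted p under 0.05 and 0 with DESeq2's Wald test), with -0.20 ± 0.0907 (adjusted p = 0.167) for Gimap6, -0.19 ± 0.169 (adjusted p = 0.558) for Gimap9 and -0.077 ± 0.107 (adjusted p = 0.738) for Gimap8. Beside mature SP-like cells the order of the means turned for Gimap3. It was at 96.4 CPM in SP-CD8-like and 133 in mature SP-like cells of Parse WT, and at 99.5 and 157 in Parse Mini, with overlapping ranges. Gimap5 stayed higher in SP-CD8-like cells, at 49.4 against 33.7 CPM in Parse WT and 57.9 against 29.8 in Parse Mini. These 2 classes were not tested against each other. Over the whole path from DP-R to mature SP, 6 members were higher in Parse WT and 7 in Parse Mini, where 19.7% and 18.9% of all genes were higher. No member was lower, also at an unadjusted p under 0.05 or with the Wald test of DESeq2, where 18.1% and 14.5% of all genes were lower. With 8 members, such an absence is not far from these shares. Gimap9 passed in neither kit, at an unadjusted p of 0.166 in Parse WT and 0.355 in Parse Mini. Gimap1 passed in Parse Mini only (0.52 ± 0.154, adjusted p = 0.00640, against 0.25 ± 0.113, adjusted p = 0.0773 in Parse WT), a call that held under 10 of 13 alternatives and was lost without T-2-A, among others. Gm28053, which spans Gimap1, also passed in Parse Mini only (1.15 ± 0.255, adjusted p = 2.04e-04, against 0.46 ± 0.194, adjusted p = 0.0577 in Parse WT). The part of shared reads in the Gimap1 call was not tested.

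**Figure D2:**
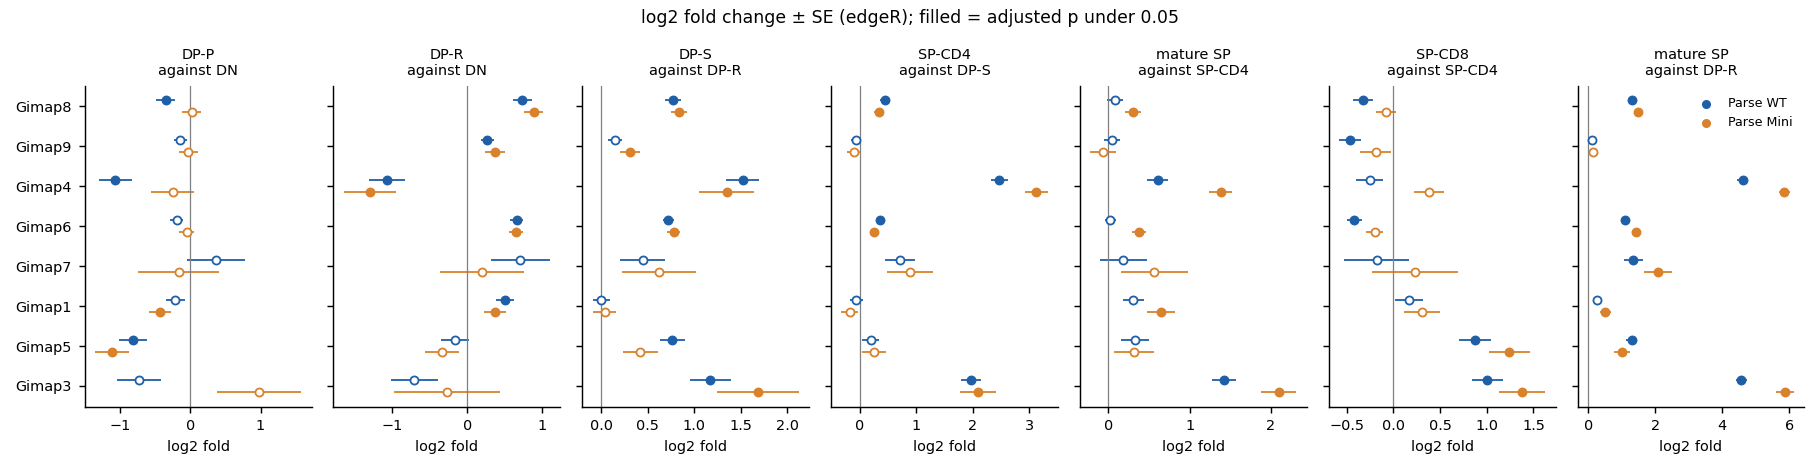
log2 fold changes of the 8 Gimap genes (rows, in genome order) for 7 pairs of thymocyte classes (panels, each with its own horizontal scale), in Parse WT (blue) and Parse Mini (orange). Points are edgeR estimates with SE, filled where the adjusted p is under 0.05. The changes of Gimap4 and Gimap3 over the path from DP-R to mature SP lie between 4.57 and 5.88, far from those of Gimap9, at 0.12 and 0.14.

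Whether a step differed between the kits, which also hold different mice, was tested as an interaction over 10130 genes. Of the 8 members in 7 comparisons, only Gimap4 passed, in the comparison of mature SP with DP-R, where the log2 fold in Parse Mini exceeded that in Parse WT by 1.23 ± 0.281 (adjusted p = 0.0160). In that comparison 0.267% of all genes passed. The means of Gimap4 were 13.5 ± 5.96 CPM in DP-R-like and 353 ± 44.7 in mature SP-like cells of Parse WT and 7.60 ± 2.54 and 435 ± 108 CPM in Parse Mini, so that the difference rests in part on DP-R levels from which no expression was read. The call was lost without Parse WT sample 2 (0.92, adjusted p = 0.307), 3 (adjusted p = 0.0613) or 4 (adjusted p = 0.0843), and without T-1-B (0.201), T-2-A (0.0616) or T-2-B (0.260). It was kept without Parse WT sample 1 (adjusted p = 4.98e-05) and without T-1-A (adjusted p = 0.00378). No member passed in the other 6 comparisons, where the shares of all genes were 0.0494% (DP-P against DN), 0.227% (DP-R against DN), 0.148% (DP-S against DP-R), 0.938% (SP-CD4 against DP-S), 0.267% (mature SP against SP-CD4) and 0.0691% (SP-CD8 against SP-CD4). At an unadjusted p under 0.05 these comparisons held 8 of 48 values, and with DESeq2's size factors in the same test none passed either. Gimap3 differed by 1.30 ± 0.375 from DP-R to mature SP (adjusted p = 0.142), in the same direction as Gimap4.

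Scaled per kilobase of exon, the order of the members' levels differed between DP-R-like and mature SP-like cells. In its RNA velocity analysis the study found more unspliced than spliced transcripts in its Parse WT thymic data, so transcripts with introns were sampled too. Whether the members' UMIs scale with exon length, and how many come from introns, was not tested, and the order depends on the scaling. In DP-R-like cells of Parse WT, Gimap9 (40.1 ± 6.39 CPM per kb) and Gimap6 (38.2 ± 2.28) stood highest, followed by Gimap8 (22.2 ± 2.37) and Gimap1 (14.1 ± 0.959). Gimap4 stood at 7.37 ± 3.24, Gimap5 at 3.13 ± 0.428, Gimap3 at 1.96 ± 0.423 and Gimap7 at 1.79 ± 0.380 CPM per kb. In CPM without this scaling Gimap6 (134 ± 7.96) stood above Gimap9 (65.8 ± 10.5) in the same cells. In mature SP-like cells Gimap4 led with 192 ± 24.3 CPM per kb, ahead of Gimap6 (85.0 ± 5.00), Gimap8 (57.3 ± 16.3), Gimap3 (51.5 ± 13.6) and Gimap9 (43.9 ± 12.9). Gimap4 made up 3.72% ± 1.49 of the family's UMIs in DP-R-like and 30.3% ± 1.88 in mature SP-like cells, whereas Gimap6 went from 37.1% ± 1.22 to 25.6% ± 1.94 as a share.

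Over the 36 points of 9 classes and 4 samples in each kit, members formed pairs of like course. The correlation of log2(CPM + 1) was 0.96 in Parse WT and 0.93 in Parse Mini for Gimap3 and Gimap4, and 0.96 in Parse WT and 0.94 in Parse Mini for Gimap6 and Gimap8. Gimap9 had its highest values with Gimap6, at 0.46 in Parse WT and 0.56 in Parse Mini, and with Gimap8, at 0.41 in Parse WT and 0.49 in Parse Mini, against 0.20 in Parse WT and 0.14 in Parse Mini with Gimap3 and 0.17 in Parse WT and 0.18 in Parse Mini with Gimap7. The points share libraries, and classes of 1 sample share their animal, so these values describe the pattern only. In genome order neither pair is adjacent, since Gimap6 and Gimap8 are separated by Gimap9 and Gimap4. Genes outside the family were then ranked, among 9794 genes of at least 5 CPM, and the members were left out of the ranking. Those with the course most like Gimap3 were Evl (r = 0.93 and 0.95), Ms4a4b (r = 0.95 and 0.91) and Skil (r = 0.92 and 0.91), with r given for Parse WT and Parse Mini. For Gimap4 they were Samhd1 (r = 0.97 and 0.95), Inpp4b (r = 0.95 and 0.95) and Chd7 (r = 0.95 and 0.94). Gimap6 was most like Tnik (r = 0.94 and 0.95), Prkcq (r = 0.92 and 0.91) and Fyn (r = 0.91 and 0.92), and Gimap8 most like Fyn (r = 0.94 and 0.94) and Tnik (r = 0.94 and 0.93). By the lower of the 2 kits' values, which set the ranking, Gimap6 and Gimap8 were closer to each other than to any gene named here. Gimap4 was closer to Gimap3 than Ms4a4b and Skil were, but Evl was closer still. Samhd1, Inpp4b and Chd7 were each closer to Gimap4 than Gimap3 was. The nearest gene outside the family was Traf3ip3 (r = 0.77 and 0.77) for Gimap1, Zfp827 (r = 0.82 and 0.82) for Gimap5, Ppm1b (r = 0.71 and 0.69) for Gimap7 and Malat1 (r = 0.60 and 0.71) for Gimap9. For the summed family it was Sp100 (r = 0.96 and 0.95), followed by Gm26740 (r = 0.94 and 0.94) and Tgfbr2 (r = 0.94 and 0.95).

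**Figure D3:**
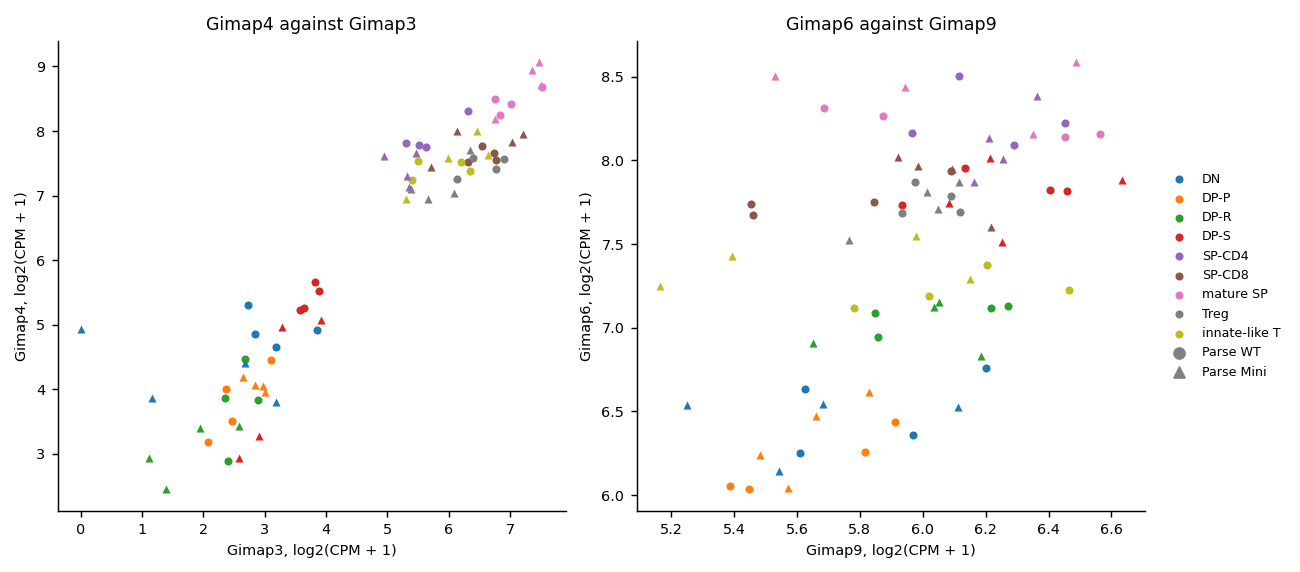
Gimap4 against Gimap3 (left) and Gimap6 against Gimap9 (right), both axes in log2(CPM + 1). Each point is 1 class in 1 tissue sample, coloured by class, with circles for Parse WT and triangles for Parse Mini. Gimap3 and Gimap4 lie along 1 line, with DN and DP classes at the lower end apart from the SP, Treg and innate-like classes, while Gimap9 spans a narrow range over which Gimap6 varies widely.

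In single cells the members were thinly sampled. Thinned to 1000 UMIs, 23.4% ± 1.77 of DP-R-like and 63.3% ± 5.67 of mature SP-like cells of Parse WT had a UMI of any member, and 26.1% ± 2.32 and 70.0% ± 3.57 in Parse Mini. Without thinning the shares were 45.7% and 92.5% in Parse WT, at median depths of 1959.5 and 3615 UMIs. Gimap4 was found in 0.996% ± 0.350 of thinned DP-R-like, 19.7% ± 2.32 of SP-CD4-like and 29.8% ± 2.59 of mature SP-like cells of Parse WT. Gimap6 was found in 9.39% ± 0.943, 22.4% ± 4.35 and 23.6% ± 3.00 of the same classes. As a background, 4.47% (1.97 to 44.8%) of thinned erythroid-like cells of the other samples, a type that should lack these genes, had a UMI of any member (median and range, 19.7% without thinning), and 1.32% (0 to 6.90%) had one of Gimap4. Gimap6 was found in 1.09% (0 to 13.8%) of erythroid-like cells. The share of Gimap4 in DP-R-like cells lay below the erythroid median, and no expression was read from it. This gauge comes from other samples, where Gimap4 over all cells had a median of 238 CPM, against 61.5 CPM in the Parse WT thymic samples. It therefore cannot show whether the share in DP-R-like cells is background. The share of Gimap6 in DP-R-like cells lay within the erythroid range only because of sample CVS_C_3, with 4 of 29 thinned cells. In the other 14 samples the erythroid-like share of Gimap6 was at most 3.95% and that of any member at most 13.8%. In SP-CD4-like cells of Parse WT the summed family was at 864 to 1017 CPM over 9 sublibraries and 855 to 1243 CPM over 8 first-round wells, against 353 to 387 and 304 to 395 CPM in DP-R-like cells.

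Genes of related roles were followed beside the family from DP-R to mature SP, where 19.7% of all genes were called higher and 18.1% lower in Parse WT, and 18.9% and 14.5% in Parse Mini. Of 15 interferon-inducible GTPases, another class of immune GTPases, 14 rose and 1 fell in Parse WT with a median log2 fold of 1.56, and of 14 tested in Parse Mini 12 rose and 1 fell with a median of 1.84. Iigp1, Mx1 and Tgtp2 rose most, by 5.13, 4.65 and 3.56 in Parse WT and by 7.17, 5.90 and 3.94 in Parse Mini, and Gbp8 fell by 0.64 and by 0.76 on the log2 scale. The median over the 8 Gimap genes was 1.30 and 1.45, and over all genes tested -0.021 and 0.00580. Of 15 genes of maturation and thymic egress, 13 rose in Parse WT and 14 in Parse Mini, and Klf3 fell by 0.33 and by 0.40 on the log2 scale, but 8 of them had served to name the classes, so this count is a description. Ms4a4b, outside those 8, rose by 4.72 in Parse WT.

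Genes of the Bcl2 family, which set the threshold of cell death, split in both kits. Of 11 tested in Parse WT, 4 rose and 5 fell from DP-R to mature SP, and of 10 in Parse Mini 3 rose and 2 fell, against the shares of all genes given above. The survival genes Bcl2 (3.30 and 3.72) and Bcl2a1b (2.97 and 3.96) rose, whereas the survival gene Bcl2l1 (-1.18 and -1.50) and the death-promoting gene Bcl2l11 (-0.65 and -0.44) fell. Genes of Atg8 conjugation and autophagy, the pathway that Gimap6 touches, had few calls in Parse Mini, and in Parse WT their calls were no more frequent than those of all genes. In Parse WT 1 of 13 tested rose and 3 fell, with a median log2 fold of -0.13, and in Parse Mini 1 of 13 was called and fell, with a median of -0.084. Gabarapl1 fell by 0.75 in Parse WT and Ulk1 fell by 0.49 in Parse WT and fell by 0.72 in Parse Mini.

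In the 16 other samples, which held 5405078 to 91172408 UMIs each, the family was most abundant in T and NK cells. They gave 4215 CD4 T-like, 4170 CD8 T-like, 4656 Treg-like, 1142 NK-like, 35538 B-like and 2478 MZ B-like cells. The Treg-like class is 1 cluster with more cells than the CD4 T-like class, and its share of regulatory cells was not tested. Values are the median and range over the samples with at least 100000 UMIs of the class outside ribosomal RNA. The summed family was at 2018 CPM (1252 to 2289) in Treg-like cells, 1840.3 CPM (1558 to 2027) in NK-like, 1839 CPM (1341 to 2201) in CD4 T-like and 1542 CPM (1273 to 1838) in CD8 T-like cells. B-like cells were at 1138 CPM (547 to 1559.8) and MZ (marginal zone) B-like cells at 1034 CPM (877 to 1523). Lower levels stood in neutrophil-like (483 CPM, 68.5 to 783), plasma-like (472 CPM, 240.5 to 772), monocyte-like (384 CPM, 92.9 to 656), pDC-like (290.4 CPM, 129 to 445), cDC-like (249 CPM, 137 to 436) and macrophage-like cells (216 CPM, 27.7 to 558). Erythroid-like cells were lowest, at 79.5 CPM (36.7 to 1239.8), with the highest value in CVS_C_3, which held 52 erythroid-like cells and had the deepest median of 8039 UMIs per cell. The next sample was at 297 CPM. The low classes also carried B and T cell genes. Neutrophil-like cells held 178 CPM of the B cell gene Ms4a1 and 34.6 CPM of the T cell gene Cd3e over all samples, against 721 CPM of Ms4a1 in B-like and 394 CPM of Cd3e in CD4 T-like cells, and the part of such RNA in their Gimap levels was not tested. CD4 T-like cells themselves held 18.4 CPM of Ms4a1, and B-like cells 3.62 CPM of Cd3e. NK-like cells held 99.3 CPM of Cd3e and 64.7 CPM of Cd4, against 405 CPM of Cd4 in CD4 T-like cells, and the part of T cell RNA in the NK levels and in the orders of T against NK cells was not tested.

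**Figure D4:**
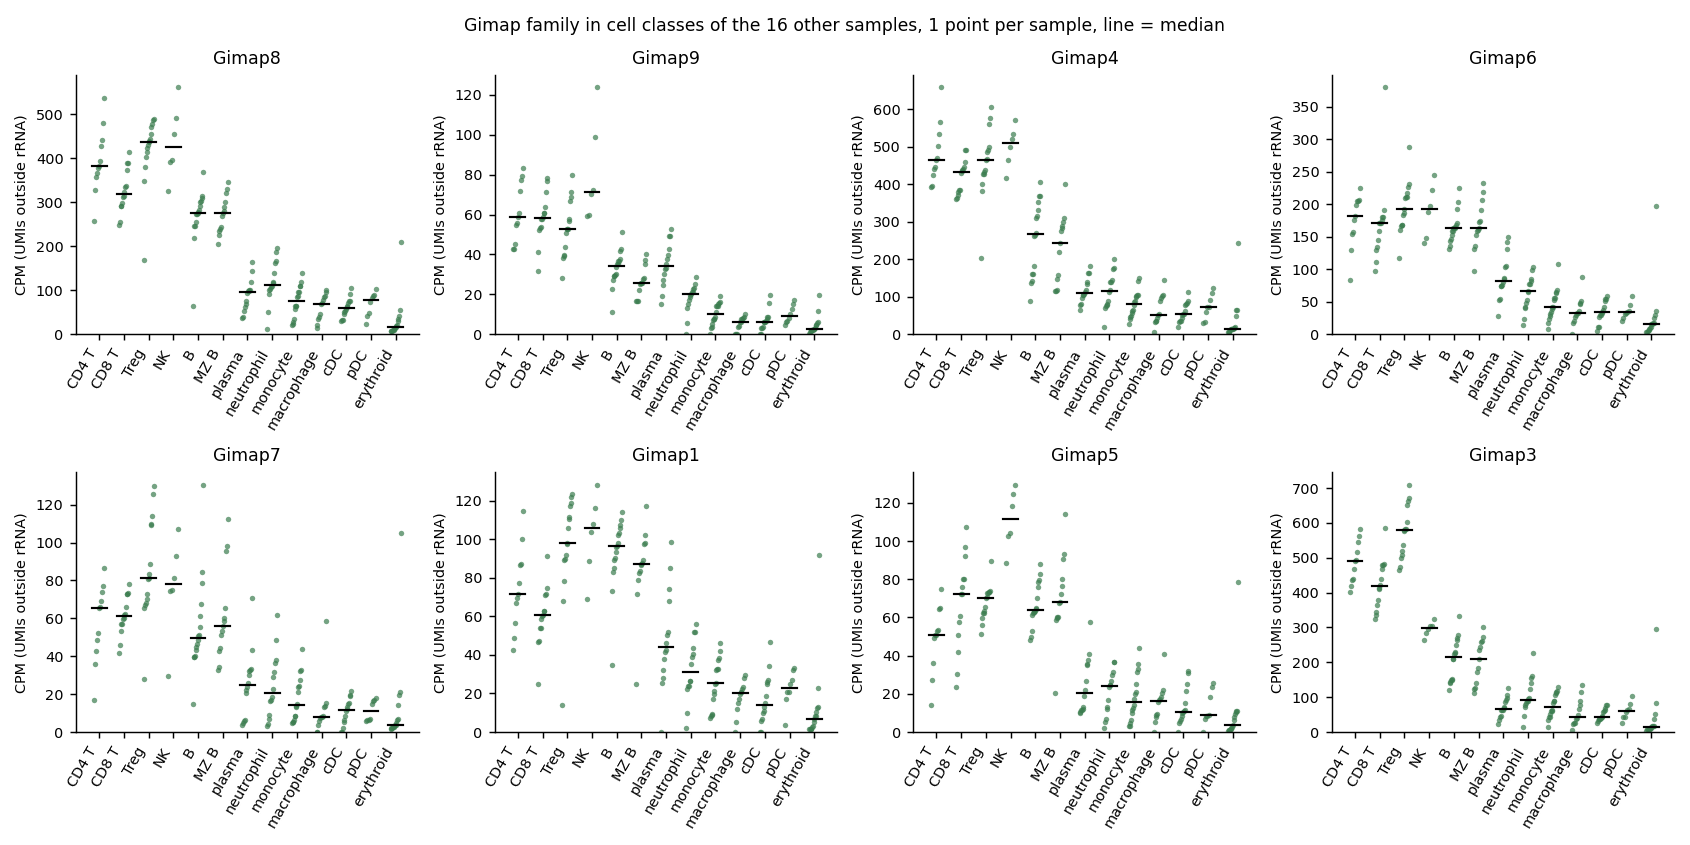
Levels of the 8 Gimap genes in 13 cell classes of the 16 other samples of the Parse WT library, in CPM of UMIs outside ribosomal RNA (vertical axis, linear, from 0). Each point is 1 sample, sorted by value within a class, and the line is the median. Gimap3 is highest in T cell classes, Gimap5 in NK, and Gimap1 is as high in B and NK as in T cell classes, while myeloid and erythroid classes lie low for all members.

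Members differed in which lymphocytes held them. Gimap3 was the most T cell-centred member, at 490.1 CPM (403 to 583) in CD4 T-like and 418 CPM (325 to 585) in CD8 T-like cells against 216 CPM (120.0 to 334) in B-like and 299.9 CPM (263 to 323) in NK-like cells. It was higher in CD4 T-like than in B-like cells of 11 of 11 samples (median log2 ratio 1.34) and higher in CD4 T-like than in NK-like cells of 6 of 6. Gimap4 was at 466 CPM (393 to 660.2) in CD4 T-like, 510.2 CPM (418 to 573) in NK-like and 268 CPM (88.3 to 405) in B-like cells. CD4 T-like cells exceeded B-like cells in 11 of 11 samples and NK-like cells in 2 of 6. Gimap8 stood at 383 CPM (257 to 538), 425 CPM (326 to 563) and 276 CPM (63.4 to 369) in the same 3 classes. Gimap9 was higher in CD8 T-like than in B-like cells of 14 of 14 samples, with medians of 58.3 and 34.4 CPM.

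Gimap1 and Gimap5 had the reverse order between CD4 T and B cells. Gimap1 was at 96.2 CPM (34.6 to 114) in B-like and 71.4 CPM (42.7 to 115) in CD4 T-like cells, and CD4 T-like cells exceeded B-like cells in only 1 of 11 samples. For Gimap5, at 63.8 CPM (48.2 to 87.9) in B-like and 50.9 CPM (13.9 to 74.9) in CD4 T-like cells, this was so in 1 of 11 samples as well. Gimap5 had its highest median in NK-like cells, at 111 CPM (88.7 to 129.5), above B-like cells in 6 of 6 samples, and CD4 T-like cells were above NK-like cells in 0 of 6. As in the thymus, CD8 T-like cells, at 72.4 CPM (23.4 to 107), held more of it than CD4 T-like cells, which were the higher of the pair in 2 of 11 samples. Gimap6 showed no such order, with medians of 182 CPM in CD4 T-like, 193 in NK-like and 164 in B-like cells, and CD4 T-like cells above B-like cells in 5 of 11 samples. Gimap7 was at 65.6 CPM in CD4 T-like, 81.4 in Treg-like, 78.1 in NK-like and 49.6 in B-like cells. Gm28053 was at 43.0 CPM (21.9 to 85.0) in B-like and 42.7 CPM (27.5 to 62.3) in CD4 T-like cells, and Gimap1os at 5.40 CPM (1.88 to 15.3) and 11.9 CPM (0 to 23.5). MZ B-like cells stood close to B-like cells, with the sum higher in B-like cells of 10 of 13 samples, while plasma-like cells were below B-like cells in 14 of 14.

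Set beside mature SP-like thymocytes of the same library, CD4 T-like cells of the other samples held a median of 490.1 against 133 ± 35.1 CPM of Gimap3, 383 against 212 ± 60.3 CPM of Gimap8 and 65.6 against 11.9 ± 4.95 CPM of Gimap7. For Gimap6 the order was the other way, with 182 against 297 ± 17.5 CPM, and for Gimap9 the values were 58.8 and 72.1 ± 21.2 CPM. The study calls these samples non-thymic, and the labels of the library do not say which tissue, age or stress condition each one has. They may thus differ from the thymic samples in age and condition as well, and the difference was not tested. Per kilobase, CD4 T-like cells held 254 CPM of Gimap4, 190.2 of Gimap3, 104 of Gimap8 and 52.2 of Gimap6, so that on this scale Gimap3 stood above Gimap6, in contrast to mature SP-like cells. In single cells thinned to 1000 UMIs, 71.8% (54.8 to 85.0%) of CD4 T-like, 75.0% (60 to 100.0%) of NK-like and 57.9% (31.8 to 72.5%) of B-like cells had a UMI of any member, against the 4.47% of erythroid-like cells. Without thinning these medians were 82.3%, 90.0% and 78.7%.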

How the data were processed

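The Parse WT library (9 sublibraries, 20 tissue samples) and the Parse Mini library (2 sublibraries, 4 samples) were used. Per the study's methods, reads were processed with split-pipe against mm10 with an Ensembl annotation, whose release the sources do not state, and the authors deposited whole-number UMI counts per gene and cell with a table of the sample of each cell. The 4 thymic samples of Parse WT were identified in that table by their names and by a mean cell number equal to that of the study. The members and gene lists were chosen with earlier results of these data known.

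Cells of 500 to 25000 UMIs with at most 15% mitochondrial UMIs were kept, which left 39369 of 41838 cells of the Parse WT thymus, 19273 of 20085 of Parse Mini and 81396 of 86786 of the other samples. Doublets were called within each sample by the neighbourhood of artificial doublets, at a share expected from barcode collisions, and 0.525 to 6.84% of cells per sample were left out of the sums. Thymic samples were normalised by SCTransform (without glmGamPoi) and all samples integrated by reciprocal PCA on 3000 features in Seurat 5.3.0, with the Gimap genes never among the features. Graph clusters at resolution 1 took the name of the marker list with the highest mean log2 fold, if at least 3 markers with 10 or more UMIs were raised 1.25-fold. After the clusters were seen, a cluster was left unnamed where a rival list had at least 4 raised markers and 0.4 of the best mean, or where a class other than T or B cells held T or B cell genes at 0.33 or more of their highest cluster, and thymocyte lists other than DP-R were not offered to the other samples. In Parse Mini the 1 cluster that makes up the SP-CD4-like class (1392 cells) all but tied between the SP-CD4 and DP-S lists, and every Parse Mini comparison with SP-CD4 rests on its name. The genes that the text names are all members, the genes of the fixed lists that changed most in either direction, and up to 3 genes most like a member in course, of which 1 is not reported here.

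UMIs were summed per class and sample (at least 10 cells) and tested with edgeR 4.0.16 (TMM, filterByExpr, quasi-likelihood test, Benjamini-Hochberg adjustment over all genes) in 1 fit of all 9 classes per kit, with the tissue sample as a block, since all classes of a sample come from the same lobe. DESeq2 1.42.0 served as an alternative. The fit was tested on simulated data before use. CPM refers to UMIs outside 3 ribosomal RNA genes, and SDs are over samples. In the other samples a class needed 100000 UMIs outside ribosomal RNA. Coordinates and exon lengths are those of GENCODE M21. Depth was 3227 to 4263 median UMIs per cell in the thymic samples of Parse WT, 2388 to 3221 in Parse Mini and 1527 to 8039 in the other samples. Shares of cells cover UMIs detected, not cells expressing a gene. Python 3.11.15, scipy 1.17.1, pandas 2.3.3 and R 4.3.3 were used.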

Additional observations from a re-analysis of the deposited data

Results flagged for a closer look

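Of 162 groups of 4 samples (a member or the summed family in a class of a kit), 9 held 1 sample far from the other 3 by Dixon's criterion, and chance alone flags about 1 in 20 groups. In Parse WT, sample 1 stood above the others in SP-CD4-like cells for Gimap4 (317 CPM against 214 to 225, from 292 UMIs of 193 cells), for Gimap8 (298 CPM against 174 to 184) and for the summed family (1208 CPM against 866 to 913). In mature SP-like cells sample 1 also had the highest summed family (1361 CPM against 1083 to 1116). Sample 2 of Parse WT had the highest Gimap5 in SP-CD8-like cells (67.2 CPM against 42.8 to 44.6).

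In Parse Mini, T-1-A had the lowest Gimap6 in DN-like cells (69.8 CPM against 91.0 to 92.2). T-2-B had the highest Gimap5 in SP-CD4-like cells (33.5 CPM against 19.9 to 22.2) and the highest Gimap4 in Treg-like cells (207 CPM against 123 to 137). T-2-A had the lowest Gimap5 in innate-like T cells (12.4 CPM against 38.6 to 42.8), a value that rests on 2 UMIs of 44 cells.

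The change of Gimap4 from DP-R to mature SP differed between the kits by 1.23 ± 0.281 on the log2 scale (edgeR's quasi-likelihood test of the interaction, adjusted p = 0.0160), with the larger change in Parse Mini. Its DP-R-like means of 13.5 CPM in Parse WT and 7.60 CPM in Parse Mini were at a level from which no expression was read, and the difference rests in part on them.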

How the results depend on the processing

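Over 1442 values of members under the alternatives, 1339 stayed on the same side of the threshold, 77 dropped below it, 25 rose above it and 1 reversed. That 1 was Gimap4 from DN to DP-R in Parse Mini, at a log2 fold of 0.32 with doublets removed at the published share. Of the 1339, 58 changed sign without passing the test in either fit. Of 284 counts, 246 stayed within 1.5 times the main count. From DN to DP-P the count of members in Parse WT moved from 3 to 5 (DESeq2's Wald test and doublets kept), 1 (published doublet share) and 0 (cells thinned to 1000 UMIs), and in Parse Mini from 2 to 1 (no filter and cluster resolution 2) and 0 (thinned). From DN to DP-R it moved from 5 to 2 in Parse WT (thinned), and to 2 (published doublet share) and 3 (thinned) in Parse Mini. From SP-CD4 to mature SP it moved from 2 to 1 in Parse WT (Wald test, and no replicate block), and from 5 to 3 in Parse Mini (no filter, published doublet share, resolution 2, and thinned). Between SP-CD8 and SP-CD4 it moved from 5 to 3 in Parse WT without the block and 2 when thinned, and from 2 to 1 in Parse Mini when thinned. From DP-R to mature SP it moved from 7 to 4 in Parse Mini (thinned). Thinning left 7 members tested in Parse WT and 5 in Parse Mini, without Gimap1 and Gimap5 in the latter, so these counts are lower in part by construction. Otherwise the cause was not tested. Without a filter the kit difference passed for 1 member in mature SP against SP-CD4, 1 in SP-CD8 against SP-CD4 and 2 in mature SP against DP-R, in place of 0, 0 and 1. These alternatives for the kit difference, the other name of the tied Parse Mini cluster and the omission of CVS_C_3 were chosen after seeing the data. In the other samples, keeping doublets put the family of CD8 T-like above NK-like cells in 1 of 6 samples in place of 0. CPM of all UMIs lowers every level by construction, and 13 medians fell below the range over samples of the main values.

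With each replicate left out in turn, the counts in the order of the 7 comparisons ran from 2 to 3, 4 to 7, 5 to 5, 4 to 4, 2 to 2, 3 to 4 and 6 to 7 in Parse WT. In Parse Mini they ran from 1 to 2, 3 to 5, 4 to 5, 3 to 4, 3 to 4, 2 to 2 and 5 to 7. With the tied Parse Mini cluster named DP-S, no comparison with SP-CD4 could be fitted in Parse Mini. The kit difference stayed at 0 in all but mature SP against SP-CD4 (0 to 1) and mature SP against DP-R (0 to 2). The block changed no count by over 1.5 times other than those named. Gimap7, with means of 2.47 to 14.5 CPM over the thymocyte classes, and Gimap3 and Gimap4 in double-positive cells are the members that depth limits most.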

Other observations

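Over all cells of a sample, Gimap9 was higher in the thymic than in the other samples, unlike Gimap3 and Gimap7. Gimap9 had a median of 58.7 CPM (49.8 to 75.2) in the 4 thymic samples of Parse WT and 32.0 CPM (12.6 to 40.2) in the 16 other samples of the same library, without overlap. Gimap6 was at 142 CPM (127 to 151) and 130.2 CPM (60.6 to 204), with overlap. Gimap3, by contrast, was at 19.9 CPM (17.3 to 30.2) and 208 CPM (122 to 325), and Gimap7, the rarest member of the thymus, at 5.00 CPM (3.86 to 6.71) and 44.7 CPM (14.1 to 113). These are values without a test, since the meaning of the name prefixes of the 16 samples is not stated.

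A DP-R-like class of 7 of the other samples held 435 CPM of Rag1 but also 100.0 CPM of the B cell gene Ms4a1 over all samples. Its summed family was at 488 CPM (255 to 618), with 60 CPM of Gimap3 and 103 CPM of Gimap4, against 5.05 ± 1.09 and 13.5 ± 5.96 CPM (mean ± SD, n = 4) in DP-R-like cells of the Parse WT thymus. The part of RNA from B cells in these values was not tested.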
